A study of Mus musculus with 8 samples.

Results

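Nuclear-encoded subunits of the mitochondrial respiratory chain and of ATP synthase were followed in gastrointestinal stromal tumors (GIST, a KIT-driven sarcoma of the gut wall) that grew in the cecum of mice. Members were taken by gene name: symbols starting with Nduf followed by a, b, c, s or v and a digit (complex I), Sdha to Sdhd (complex II), Uqcr (complex III), Cox4 to Cox8 (complex IV) and Atp5 (complex V). Names holding -ps, which mark pseudogenes, were left out, and the mean over all 8 libraries had to reach 5 FPKM (fragments scaled by transcript length and by library size, so a level corrected for length). Of 34586 gene symbols in the table, 86 matched by name and 79 of these were members: 36 in complex I, 4 in complex II, 8 in complex III, 15 in complex IV and 16 in complex V. The 7 matches under 5 FPKM were Ndufa4l2, Cox4i2, Cox6a2, Atp5l2, Atp5g2, Cox8c and Cox7b2. Nearest to the limit were Ndufa4l2 at a mean of 2.23 FPKM outside it and Ndufs5 at 7.41, Cox4nb at 8.54 and Atp5s at 11.5 FPKM inside it.

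RNA of 8 samples of such tumors was sequenced, 4 labelled Vehicle and 4 labelled Tamoxifen, to ask how expression differs once Etv1 has been ablated. All 8 samples came from C57BL/6 mice with the same alleles: Kit V558Delta/+, an activating mutation on 1 copy of Kit, Etv1 flox/flox and Rosa26 CreERT2/CreERT2. Tamoxifen activates the CreERT2 recombinase, which then deletes the floxed part of Etv1, and Rosa26 drives it in most cell types, so deletion is not limited to tumor cells. The labels give no dose, route or time after tamoxifen. Because no group received tamoxifen without the recombinase or without floxed Etv1, an effect of tamoxifen itself and one of Etv1 loss cannot be told apart. The labels do not say whether the replicates are different mice, and the p-values rest on the spread between these 8 samples, which may be technical.

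The respiratory chain passes electrons from NADH (complex I) and succinate (complex II) through ubiquinone to complex III, and from there through cytochrome c to oxygen at complex IV. The proton gradient that complexes I, III and IV build up drives ATP synthesis by complex V. Most subunits are encoded in the nucleus and a few in mitochondrial DNA, and some nuclear subunits exist as isoforms that different tissues use. In GIST, loss of complex II defines a class of tumors that lack KIT mutations, which is a different setting from the Kit-mutant tumors described here.

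Absolute read depth is unknown, and relative depth estimated from low genes was 0.817 to 1.16 of that of Vehicle replicate 1. Of 15023 tested genes, 358 were higher and 461 lower after tamoxifen (limma on log2(FPKM + 1), Benjamini-Hochberg adjusted p under 0.05). With every library scaled to the same total FPKM the split was 153 higher and 75 lower genes called. These totals ran from 899412 to 1661946 FPKM. Without immunoglobulin and T cell receptor segments and mitochondrial transcripts they ran from 542564 to 607725 FPKM. Scaling to the latter totals gave 401 higher and 392 lower genes. Etv1 measured 34.6 to 51.1 FPKM in the vehicle libraries and 17.4 to 34.9 in the tamoxifen libraries, a log2 fold change of -0.70 with a limma adjusted p of 0.13. Its single row covers exons inside and outside the floxed part, so it is an incomplete check of the deletion. Kit, the receptor that drives these tumors, ranged from 542 to 892 FPKM with vehicle and from 386 to 567 FPKM after tamoxifen. Its log2 fold change was -0.75 with an SE of 0.20 and a limma adjusted p of 0.0674, and it passed the threshold in 4 of 22 alternatives. Of the cell type markers, 5 of 6 T and NK cell genes and 3 of 3 tested red blood cell genes were lower. All 4 tested neutrophil genes, 3 of 5 endothelial, 4 of 6 pericyte and 1 of 8 epithelial genes were higher. The changes of all 8 epithelial genes were positive. Their sum was 456 to 740 FPKM in vehicle and 926 to 2211 in tamoxifen libraries. Of the 6 GIST markers 1 was lower, with none at 0 and a sum of 1480 to 2200 FPKM in vehicle and 1055 to 1501 in tamoxifen libraries. In bulk tumor RNA, fewer cells of a type and less RNA per cell cannot be told apart, and the part of these shifts in the results below was not tested.

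Promoter sequence is shown first for the 2 members that fell, Cox6b2 and Atp5sl. Cox6b1, the ubiquitous partner isoform of Cox6b2, and Cox6a1, which carries letters of several factors that are known to serve this gene class, are set beside them. Each line gives the 250 bases before the RefSeq transcription start on GRCm38.p6, read 5′ to 3′ on the gene's strand. Capitals mark ETS-type letters (CCGGAAG) or NRF-1 letters (GCGCATGCG), each searched on both strands, with overlapping matches on opposite strands run together.
Cox6b2: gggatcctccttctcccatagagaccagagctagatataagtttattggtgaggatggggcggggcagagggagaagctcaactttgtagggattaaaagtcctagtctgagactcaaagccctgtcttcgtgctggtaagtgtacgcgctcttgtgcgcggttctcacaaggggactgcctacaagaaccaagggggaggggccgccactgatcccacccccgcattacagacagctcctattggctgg
Atp5sl: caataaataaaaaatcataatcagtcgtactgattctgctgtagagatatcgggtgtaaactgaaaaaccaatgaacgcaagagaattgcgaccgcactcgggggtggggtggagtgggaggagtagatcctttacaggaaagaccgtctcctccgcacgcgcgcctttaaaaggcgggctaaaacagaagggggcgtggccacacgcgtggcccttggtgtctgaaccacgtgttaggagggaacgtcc
Cox6b1: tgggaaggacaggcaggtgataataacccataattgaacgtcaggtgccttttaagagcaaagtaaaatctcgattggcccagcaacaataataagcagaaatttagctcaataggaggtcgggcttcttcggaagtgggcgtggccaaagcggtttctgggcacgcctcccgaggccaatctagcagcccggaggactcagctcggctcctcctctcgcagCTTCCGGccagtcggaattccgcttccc
Cox6a1: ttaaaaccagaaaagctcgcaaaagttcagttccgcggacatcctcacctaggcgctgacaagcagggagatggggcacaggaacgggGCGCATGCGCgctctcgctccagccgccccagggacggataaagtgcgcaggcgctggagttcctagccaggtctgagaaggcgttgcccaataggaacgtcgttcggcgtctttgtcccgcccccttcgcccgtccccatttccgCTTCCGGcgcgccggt

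These windows lie at chr7:4753095-4753344 (minus strand) for Cox6b2, chr7:25619164-25619413 (plus strand, the first of 2 starts) for Atp5sl, listed by RefSeq as Dmac2, chr7:30626115-30626364 (minus strand) for Cox6b1 and chr5:115348959-115349208 (minus strand) for Cox6a1. ETS-type letters began 28 bases before the Cox6b1 start and 16 bases before the Cox6a1 start, in both on the reverse strand. NRF-1 letters began 162 bases before the Cox6a1 start. In the 250 bases before Cox6b2 and before the first Atp5sl start, none of the ETS, NRF-1 or YY1 (AAGATGGCG) letters were found on either strand, which says only that these letters are not in this stretch. The YY1 letters began 26 bases past the first Atp5sl start, which is 53 bases before the second.

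Across the family, RefSeq promoter windows of 300 bases (250 before and 50 after the start) were matched for 67 of 79 members, 64 by symbol and 3 by synonym, giving 73 windows. ETS-type letters were in 21.9% of these windows. They were in 8.86% of all 32851 windows and in 11.6% of the 21262 windows of protein-coding genes. YY1 letters were in 12.3% against 1.40% of all and 1.83% of coding windows. NRF-1 letters were in 9.59% against 1.75% and 2.35%, and the CCAAT letters in 42.5% against 37.4% and 38.2%. Both strands were counted, and each motif was counted also where its letters overlap those of another. ETS factors include Etv1 and also Gabpa, a known activator of respiratory genes, and the match does not tell them apart. The 16 members with ETS-type letters had a median change of -0.23 on the log2 scale and 15 of them were negative, and the 51 without had a median of -0.16 and 46 negative. Both groups of members thus leaned the same way, and both called members were among those without the ETS-type letters. Of the 8 members with YY1 letters all 8 were negative, with a median of -0.24, and 1 was called (Atp5sl), while the 59 without had a median of -0.18, 53 negative and 1 called (Cox6b2). Of the 30 with CCAAT letters 25 were negative, with a median of -0.20, and both called members were among them, while 36 of the 37 without were negative, with a median of -0.18. The 7 with NRF-1 letters had a median of -0.28, 6 negative and 0 called, and the 60 without had a median of -0.17 and 55 negative. No difference between members with and without a motif was tested.

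The family as a whole showed small differences. After tamoxifen 0 members rose and 2 fell, Cox6b2 and Atp5sl, while 77 did not pass the threshold (limma adjusted p under 0.05, 2-sided), where 5.45% of all tested genes and 5.41% of those at 5 FPKM or more passed. By direction, 2.38% of all tested genes rose and 3.07% fell. The counts and medians include Atp5sl (under complex V) and Cox4nb (under complex IV), which match by name only, as described below. Of the 79 members, 69 had a negative log2 fold change (tamoxifen minus vehicle), against 49.4% of all tested genes and 57.4% of the tested genes at 100 FPKM or more. The median log2 fold change of FPKM + 1 was -0.18 for members, 0.01 for all tested genes and -0.08 for those at 100 FPKM or more. At an unadjusted p under 0.05 (limma) there were 9 of 79 members, 7 with negative and 2 with positive values, against 3365 of the 15023 tested genes, 1728 negative and 1637 positive.

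By complex the median was -0.15 in complex I, -0.23 in II, -0.22 in III, -0.13 in IV and -0.25 in V. Negative values were held by 30 of 36, 4 of 4, 8 of 8, 12 of 15 and 15 of 16 members in the same order. The groups of libraries did not overlap for 6 members, 4 lower (Cox6b2, Atp5sl, Uqcrq and Atp5e) and 2 higher, 1 of them Cox7a2l. That is 7.59% of members, against 15.1% of all tested genes, of which 7.74% were lower and 7.37% higher. The 95% confidence interval of the log2 fold change lay within -1 to 1 for 74 of 79 members and for 11164 of 15023 tested genes. It lay within -0.5 to 0.5 for 26 members and for 4240 of all tested genes.

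**Figure D1:**
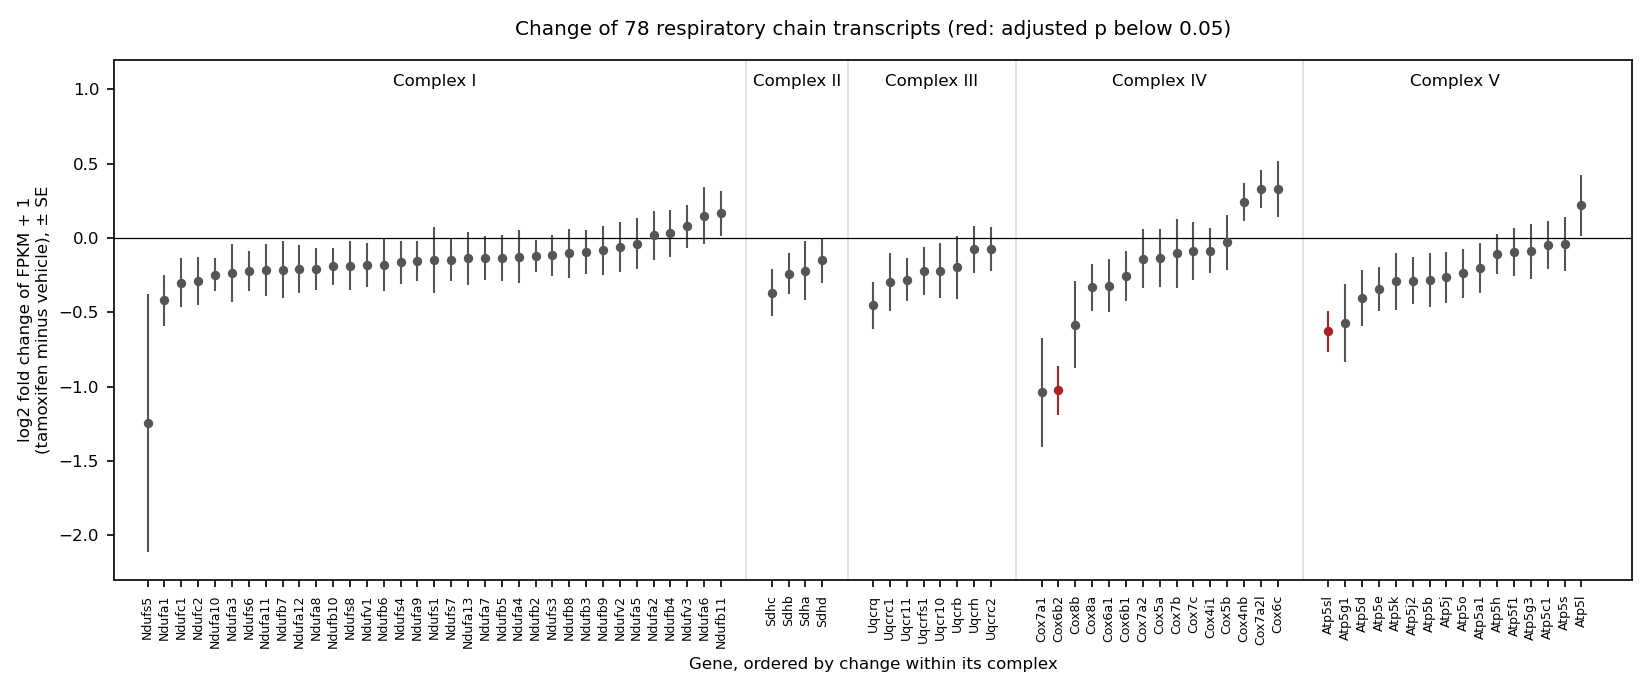
Each point is the log2 fold change of FPKM + 1 (tamoxifen minus vehicle) of 1 member, with its SE as a bar, for 78 of the 79 members, in order of change within complexes I to V. Most points lie between 0 and -0.5, and Cox6b2 and Atp5sl (red) are the 2 that passed the adjusted threshold.

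The mean log2(FPKM + 1) over the 79 members was 7.23, 7.42, 7.52 and 7.14 in Vehicle replicates 1 to 4 and 7.27, 6.86, 7.20 and 7.21 in Tamoxifen replicates 1 to 4. The groups overlapped: Vehicle replicates 2 and 3 were highest, Tamoxifen replicate 2 was lowest, and the other 5 libraries lay close together. Tamoxifen replicate 2 held the lowest value of 62 of the 79 members, and Vehicle replicates 2 and 3 held the highest of 28 and 27. Without Tamoxifen replicate 2 the median log2 fold change was -0.09 and 56 members were negative. With every library scaled to the same total FPKM the median was -0.12, and that of all tested genes 0.06. Tamoxifen replicate 2 also had the highest summed macrophage markers, 979 FPKM against 452 to 763 in the other 7 libraries, and its summed GIST markers were 1095 FPKM. Vehicle replicates 2 and 3 had the highest GIST marker sums of the 8 libraries, 2084 and 2200 FPKM. Other libraries did not follow this order. Vehicle replicate 4 had the next highest sum, 1803 FPKM, with a member mean of 7.14. Tamoxifen replicate 4 had the lowest sum, 1055 FPKM, with a member mean of 7.21. The part of either marker list in these members' levels was not tested.

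**Figure D2:**
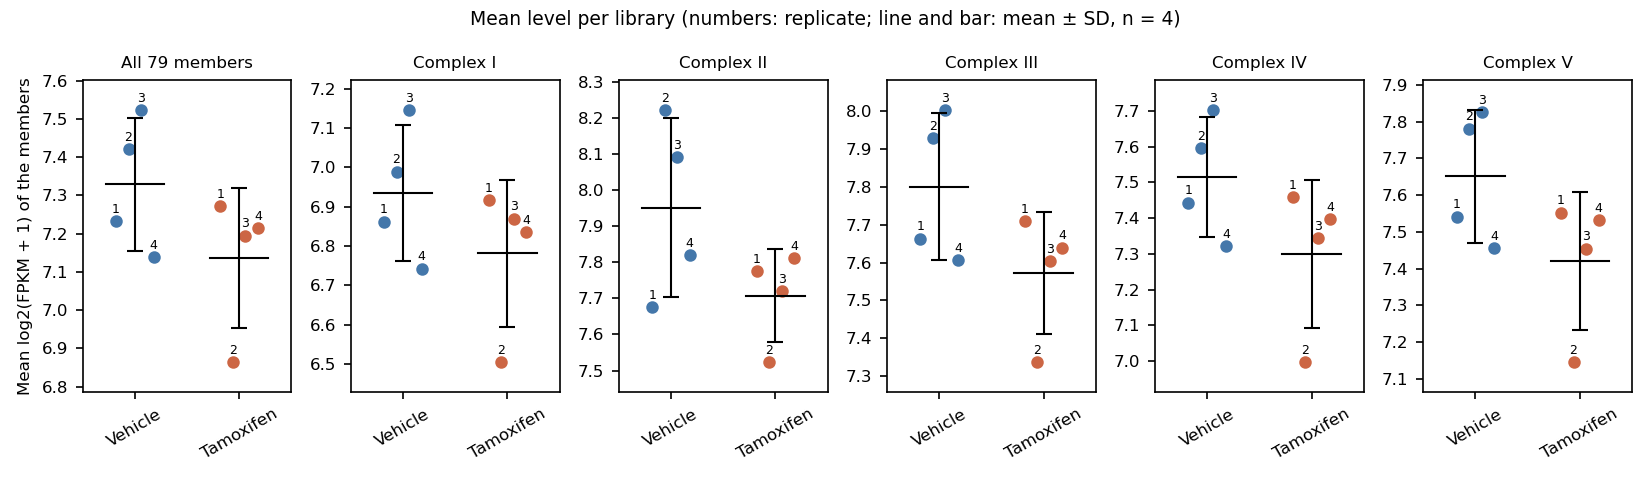
The mean log2(FPKM + 1) of the members is plotted per library, for all 79 and for each complex, with the replicate number beside each point and the mean ± SD (n = 4) as lines, on an axis of its own in each panel. Tamoxifen replicate 2 is the lowest point in every panel, and the other tamoxifen libraries lie within or just below the vehicle range.

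Complex I takes electrons from NADH. None of its 36 members passed the threshold. Negative values were held by Ndufs1, Ndufs3, Ndufs7, Ndufs8, Ndufv1 and Ndufv2, which are among its core subunits; not every core subunit is reported here.

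Members named for their role alone were picked with their values known. Ndufv1, which binds NADH, measured 135 ± 23.6 and 118 ± 12.2 FPKM in the vehicle and tamoxifen groups (SD, n = 4 each, limma adjusted p = 0.511). Its partner Ndufv2 measured 182 ± 31.1 and 174 ± 26.7 FPKM (limma adjusted p = 0.868). Ndufs1, the large iron-sulfur subunit, measured 71.5 ± 21.9 and 62.4 ± 8.26 FPKM (limma adjusted p = 0.728). These subunits of the NADH-oxidizing arm differed by less than the SD of the vehicle group.

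Among the accessory subunits, Ndufa1, a small membrane subunit needed for assembly, measured 398, 499, 448 and 333 FPKM in vehicle and 359, 249, 335 and 310 in tamoxifen replicates 1 to 4. Tamoxifen replicate 2 was lowest and the groups overlapped at Vehicle replicate 4 (log2 fold change -0.42, SE 0.17, limma adjusted p = 0.197). Ndufa10, a matrix-side subunit, measured 62.9 ± 6.88 and 52.7 ± 2.57 FPKM (log2 fold change -0.25, limma adjusted p = 0.237). Ndufa4 had the highest level of the Nduf genes, 793 ± 109 in vehicle and 731 ± 138 FPKM in tamoxifen tumors. It carries a complex I name and is now placed in complex IV.

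Ndufs5, an accessory subunit, had the most negative fold change of all members, and it rests on 1 library. It measured 1.97, 2.3, 46.9 and 1.72 FPKM in vehicle and 2.18, 1.40, 0.725 and 2.09 in tamoxifen replicates 1 to 4. Vehicle replicate 3 stood far above the other 7 libraries, which overlapped (log2 fold change -1.24, SE 0.87, limma adjusted p = 0.44). Without that library the log2 fold change was -0.24 (SE 0.25, limma adjusted p = 0.681). Ndufs5 also passed the 5 FPKM limit through that library. It is 1 of 19 members whose coding sequence has a near copy in another gene, defined as at least 95% identity over at least 80% of its length in GENCODE vM21 transcripts. How the authors counted reads shared between such copies is not stated, so these values are uncertain.

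Near copies went with low levels at the bottom of the range. Of 12 members under a mean of 50 FPKM, 6 had near copies: Ndufs5, Ndufb4, Ndufa12, Cox7c, Atp5g1 and Atp5l, the last with 8. Of the 67 members at 50 FPKM or more, 13 had near copies. The median log2 fold change was -0.11 over the 19 members with near copies and -0.18 over the 60 without. Cox6b2 and Atp5sl have none, and their loci overlap no other expressed gene. The loci of 23 members do overlap another expressed gene, and their reads may be shared.

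Complex II, succinate dehydrogenase, links the citric acid cycle to the chain. All 4 subunits were negative and none passed. Sdhc, a membrane anchor, measured 276, 386, 400.2 and 319 FPKM in vehicle and 246, 233, 287 and 299 in tamoxifen replicates 1 to 4. Vehicle replicate 1 lay within the tamoxifen range and the other 3 vehicle libraries lay above it (log2 fold change -0.37, SE 0.16, limma adjusted p = 0.218). Sdhd, the other anchor, measured 206 ± 31.6 and 185 ± 24.7 FPKM (limma adjusted p = 0.602).

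Sdhb, the iron-sulfur subunit, measured 113 ± 11.5 and 95.8 ± 12.7 FPKM (log2 fold change -0.24, limma adjusted p = 0.338). Sdha, the flavoprotein that oxidizes succinate, had the highest level of the 4, at 361, 655, 533 and 386 FPKM in vehicle and 434, 389, 392 and 398 in tamoxifen replicates 1 to 4. The tamoxifen libraries sat within the vehicle range, whose top was set by replicates 2 and 3 (log2 fold change -0.22, limma adjusted p = 0.549). All 4 subunits were present in every library, the lowest value being 77.7 FPKM, for Sdhb in Tamoxifen replicate 2.

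Complex III passes electrons from ubiquinol to cytochrome c. All 8 members were negative and none passed. Uqcrq, a small subunit known as the ubiquinone-binding protein, measured 175, 201, 256 and 177 FPKM in vehicle and 169, 128, 138 and 151 in tamoxifen replicates 1 to 4. The groups did not overlap, though Tamoxifen replicate 1 was close to the lowest vehicle library (log2 fold change -0.45, SE 0.16, limma adjusted p = 0.137). Uqcr11 measured 141 ± 21.0 and 115 ± 13.3 FPKM (limma adjusted p = 0.292), and Uqcrc1, a core protein, 104 ± 12.4 and 86.2 ± 22.1 FPKM (limma adjusted p = 0.419).

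Uqcrfs1, the Rieske iron-sulfur protein, measured 150 ± 27.4 and 128 ± 15.5 FPKM (limma adjusted p = 0.46). Uqcr10, a small subunit, had the highest level in complex III, 673 ± 103 and 581 ± 107 FPKM (limma adjusted p = 0.521). Differences in complex III other than Uqcrq were within the overlap of the groups.

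Complex IV, cytochrome c oxidase, reduces oxygen, and it holds the member with the smallest adjusted p of the family. Cox6b2 is an isoform of the Cox6b subunit known mainly from testis (ENSMUSG00000051811, chromosome 7, 4703396 to 4704696 in mm9). It measured 35.1, 28.3, 36.1 and 24.7 FPKM in vehicle and 13.4, 12.5, 18.1 and 14.8 in tamoxifen replicates 1 to 4. Every tamoxifen library was below every vehicle library, with a gap between 18.1 and 24.7. The group means were 31.0 ± 5.45 and 14.7 ± 2.47 FPKM, so that Cox6b2 fell (log2 fold change -1.02, SE 0.16, limma adjusted p = 0.015). The call was kept in 21 of 22 alternatives and lost with libraries scaled to the same total (limma adjusted p = 0.114, range over alternatives 0.0102 to 0.114). With receptor segments and mitochondrial transcripts left out of the total, the call was kept (limma adjusted p = 0.0147).

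The ubiquitous isoform Cox6b1 was far more abundant, at 710, 791, 766 and 605 FPKM in vehicle and 646, 467, 598 and 708 in tamoxifen replicates 1 to 4. Its groups overlapped (log2 fold change -0.26, SE 0.17, limma adjusted p = 0.403). The share of Cox6b2 in the summed FPKM of both isoforms, which does not depend on how libraries are scaled, was 4.70, 3.45, 4.50 and 3.93% in vehicle and 2.03, 2.61, 2.94 and 2.05% in tamoxifen replicates 1 to 4. These shares did not overlap either, so Cox6b2 was lower also relative to its partner. The testis germ cell markers Prm1, Prm2, Tnp1 and Ddx4 summed to at most 0.525 FPKM in any library.

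**Figure D3:**
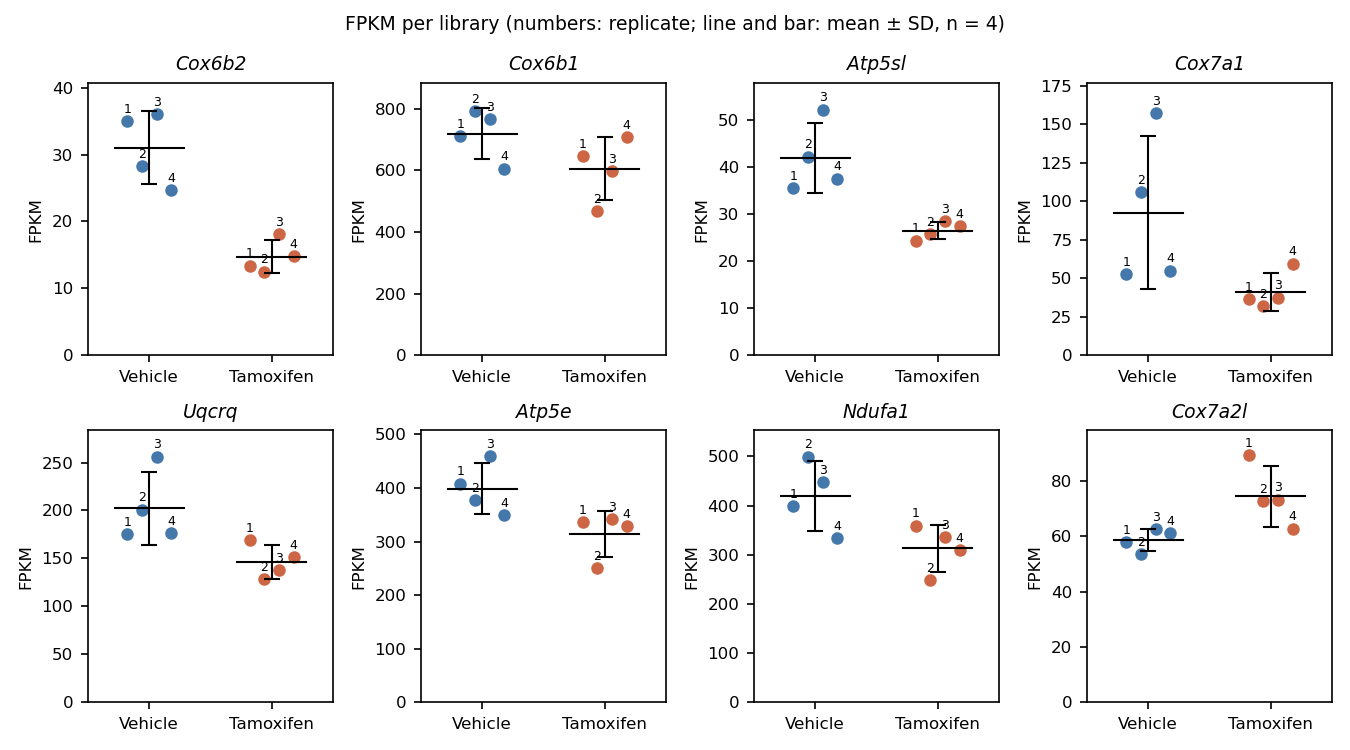
FPKM per library (y axis from 0) is shown for 8 members, with replicate numbers and the mean ± SD (n = 4) as lines. Cox6b2 and Atp5sl separate downward by group and passed the adjusted threshold, while Uqcrq, Atp5e and Cox7a2l separate by smaller margins and did not pass.

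Other isoforms that muscle is known to use were lower on average with wide spread. Cox7a1, the heart and skeletal muscle isoform, measured 52.7, 106, 157 and 54.9 FPKM in vehicle and 36.2, 32.1, 37.5 and 59.5 in tamoxifen replicates 1 to 4. Vehicle replicates 2 and 3 were high, and Tamoxifen replicate 4 lay above Vehicle replicates 1 and 4 (log2 fold change -1.04, SE 0.37, limma adjusted p = 0.141). Its share of Cox7a1 plus Cox7a2 was 20.9 ± 7.43% in vehicle and 12.2 ± 3.60% in tamoxifen tumors, with overlap. Cox7a2, the broadly expressed isoform, measured 332 ± 50.9 and 305 ± 78.3 FPKM (limma adjusted p = 0.715).

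Cox8b, a further heart and muscle isoform, measured 128, 73.5, 190 and 110 FPKM in vehicle and 110, 73.5, 77.7 and 61.2 in tamoxifen replicates 1 to 4. The groups overlapped and Vehicle replicate 3 was highest (log2 fold change -0.58, SE 0.29, limma adjusted p = 0.282). Its share of Cox8b plus Cox8a was 15.2 ± 4.84 and 12.8 ± 3.21%. Markers of skeletal and cardiac muscle summed to 8.64 to 10.9 FPKM in vehicle and 15.5 to 47.8 in tamoxifen libraries, mostly from Tnnt3. Only 1 of these 8 markers reached the level to be tested. Smooth muscle markers summed to 104 to 174 and 119 to 193 FPKM. The part of either marker list in the Cox7a1 and Cox8b values was not tested.

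**Figure D4:**
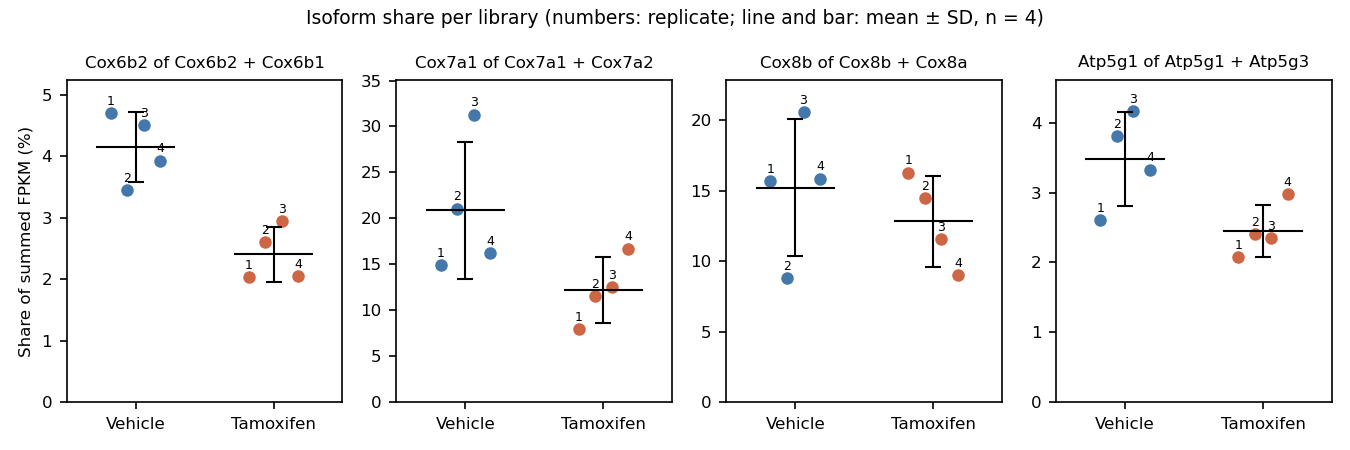
The percent of summed FPKM held by the first isoform of each pair is plotted per library (y axis from 0), with the mean ± SD (n = 4) as lines. The Cox6b2 shares of the groups do not overlap, and those of Cox7a1, Cox8b and Atp5g1 do. Of the pairs not plotted, the Cox4i2 and Ndufa4l2 shares did not overlap and the Cox6a2 share did.

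In contrast, Cox7a2l measured 57.8, 53.7, 62.7 and 61.1 FPKM in vehicle and 89.3, 72.7, 73.3 and 62.8 in tamoxifen replicates 1 to 4. It is known as a factor for supercomplexes of complexes III and IV, which RNA levels do not show. The groups did not overlap, by the small margin of Tamoxifen replicate 4 over Vehicle replicate 3 (log2 fold change 0.33, SE 0.13, limma adjusted p = 0.177). The central subunit Cox4i1 measured 745 ± 54.8 and 707 ± 109 FPKM (limma adjusted p = 0.775). Its locus in the table is merged into a long region that overlaps 67 other expressed genes, Cox4nb among them, so their reads may be mixed. Cox4nb, at 7.71 ± 0.403 and 9.37 ± 1.64 FPKM, matches by name only: it is Emc8, of the endoplasmic reticulum membrane complex.

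Cox7b, a small subunit of complex IV, had the highest level of all members, 1800 ± 419 FPKM in vehicle and 1683 ± 405 in tamoxifen tumors (limma adjusted p = 0.831). Cox6a1 measured 494 ± 62.7 and 399 ± 76.4 FPKM (limma adjusted p = 0.331), and Cox8a 693 ± 78.1 and 554 ± 82.4 (limma adjusted p = 0.262). Cox6c, named after its values were seen, was on the positive side, with 613 ± 67.1 and 781 ± 187 FPKM (limma adjusted p = 0.343). The members of complex IV thus spanned both directions, and Cox6b2 alone passed.

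Complex V makes ATP. Atp5sl fell, and it matches by name only: RefSeq lists it as Dmac2, which is known as an assembly factor of complex I and not as a subunit of ATP synthase (ENSMUSG00000057229, chromosome 7, 26404433 to 26410570 in mm9). It measured 35.5, 42.2, 52.2 and 37.5 FPKM in vehicle and 24.3, 25.7, 28.4 and 27.4 in tamoxifen replicates 1 to 4. The groups did not overlap, and the tamoxifen libraries lay close together. It went from 41.8 ± 7.43 to 26.5 ± 1.81 FPKM (log2 fold change -0.63, SE 0.14, limma adjusted p = 0.0383).

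That call was near the threshold: it was lost in 10 of 22 alternatives, and over all 22 the limma adjusted p ran from 0.0304 to 0.498. These included leaving out any 1 of Vehicle replicates 2, 3 and 4 or Tamoxifen replicates 1, 2 and 4 (limma adjusted p 0.0586 to 0.098) and the scaling to the same total (0.498). Among true subunits of ATP synthase 0 passed.

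Atp5e, the epsilon subunit of the rotor stalk, measured 408, 377, 460 and 349 FPKM in vehicle and 336, 251, 341 and 329 in tamoxifen replicates 1 to 4. The groups did not overlap, and Tamoxifen replicate 2 was lowest (log2 fold change -0.34, SE 0.15, limma adjusted p = 0.218). Atp5b, the catalytic beta subunit, had the highest level in complex V, 1532 ± 253 and 1260 ± 208 FPKM (log2 fold change -0.28, limma adjusted p = 0.4). Atp5g1 and Atp5g3 encode the same mature c subunit of the rotor ring. Atp5g1 measured 29.0 ± 10.0 and 18.6 ± 4.35 FPKM (limma adjusted p = 0.242), and Atp5g3 789 ± 142 and 740 ± 119.5 FPKM (limma adjusted p = 0.814).

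The share of Atp5g1 in the sum with Atp5g3 was 3.48 ± 0.672% in vehicle and 2.45 ± 0.376% in tamoxifen tumors, with overlap between the groups. Atp5l, a subunit at the dimer interface, was the only positive value in complex V, 31.7 ± 2.62 and 38.3 ± 12.2 FPKM (limma adjusted p = 0.569), and it has the 8 near copies noted above. Atp5s, listed by RefSeq as Dmac2l, measured 11.6 ± 1.41 and 11.4 ± 3.11 FPKM (limma adjusted p = 0.921).

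Of the name matches below 5 FPKM, Ndufa4l2, a hypoxia-induced relative of Ndufa4 that also marks pericytes, measured 1.83, 1.33, 1.60 and 1.45 FPKM in vehicle and 2.39, 2.94, 3.24 and 3.09 in tamoxifen replicates 1 to 4. It rose with no overlap between groups (log2 fold change 0.62, SE 0.14, limma adjusted p = 0.0396). The call was lost in 11 of 21 alternatives (limma adjusted p 0.0249 to 0.215). Cox4i2, the hypoxia-associated isoform of Cox4i1, measured 1.31 ± 0.115 and 2.17 ± 0.813 FPKM (log2 fold change 0.43, limma adjusted p = 0.24). Its share of Cox4i2 plus Cox4i1 was 0.176 ± 0.0170% in vehicle and 0.304 ± 0.0896% in tamoxifen tumors, without overlap. The share of Ndufa4l2 in the sum with Ndufa4 was 0.199 ± 0.0438 and 0.412 ± 0.107%, also without overlap. The summed pericyte markers, of which Ndufa4l2 is 1, were 64.7 to 74.3 FPKM in vehicle and 115 to 173 in tamoxifen libraries, and their part in these values was not tested.

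Genes that build or serve the chain were examined next. Of 29 tested assembly factors on the list, which does not hold Atp5sl (Dmac2), 0 passed, and their median change was -0.15 on the log2 scale. The smallest p was that of Bcs1l, the chaperone that inserts the Rieske protein into complex III, at 9.77 ± 1.12 and 6.86 ± 0.99 FPKM (limma adjusted p = 0.0809). None of 9 subunits and carriers outside the name patterns passed (median -0.21, 9 of 9 negative). Their smallest p was that of Cycs, cytochrome c, at 3.80 ± 1.13 and 2.35 ± 0.817 FPKM (limma adjusted p = 0.241). Near copies were not searched for this list, so the low Cycs level is uncertain.

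The 13 subunits encoded in mitochondrial DNA had a median of -0.06, with 8 negative, and 0 passed. They run from a few FPKM to over the level of any nuclear member, and some of their values had a failed status and were treated as missing. The smallest p in this list was that of mt-Nd6, a complex I subunit, at 3825 ± 614 and 5729 ± 1898 FPKM (limma adjusted p = 0.26). Tamoxifen replicate 1 was the highest library for it, at 8288 FPKM. Nuclear and mitochondrial transcripts thus had different medians, a difference that was not tested. The limits also differed: members had to reach a mean of 5 FPKM, and this list only 1 FPKM, its lowest mean being 1.51 FPKM.

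Of 16 regulators of mitochondrial transcription and biogenesis 0 passed, and their median was 0.00. Ppargc1a, a coactivator of mitochondrial genes, measured 27.2 ± 9.36 and 21.2 ± 9.97 FPKM, Nrf1 11.2 ± 1.33 and 11.5 ± 0.769, and Gabpa 22.3 ± 2.60 and 22.0 ± 5.02. Tfb1m, a mitochondrial rRNA methyltransferase, had the smallest p, at 5.02 ± 0.784 and 3.51 ± 0.766 FPKM (limma adjusted p = 0.172). Of 76 mitochondrial ribosomal proteins 1 fell, Mrps25, from 37.5 ± 2.97 to 24.7 ± 4.34 FPKM (limma adjusted p = 0.0467, lost in 15 of 22 alternatives), and the median was -0.07.

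The list of 17 citric acid cycle enzymes also holds Pdha1, Pdhb, Dlat and Pdhx of pyruvate dehydrogenase. Of these 17, 16 were negative, the median was -0.20 and 0 passed. Ogdh, a subunit of the oxoglutarate dehydrogenase complex, measured 165 ± 45.1 and 105 ± 21.1 FPKM without overlap (log2 fold change -0.65, limma adjusted p = 0.132). Of 17 glycolytic enzymes 0 passed, with a median of -0.22. Hk2, a hexokinase that binds mitochondria, measured 24.0 ± 8.84 and 54.8 ± 22.2 FPKM (log2 fold change 1.14, limma adjusted p = 0.0957).

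Housekeeping complexes differed from the members in their medians. The 31 constitutive proteasome subunits had a median of -0.03 and the 80 tested cytosolic ribosomal proteins one of 0.14, with 0 passing in each. Psmd11, of the proteasome, measured 46.1 ± 3.14 and 38.5 ± 4.24 FPKM (limma adjusted p = 0.224). Rpl15, of the cytosolic ribosome, measured 22.1 ± 1.38 and 17.7 ± 1.10 FPKM (limma adjusted p = 0.108). Near copies were searched for the members only and not for these lists. The median level was 75.0 FPKM in the proteasome list, 71.6 in the ribosomal list and 153 among the members. These lists are descriptions, and the differences between their medians were not tested.

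**Figure D5:**
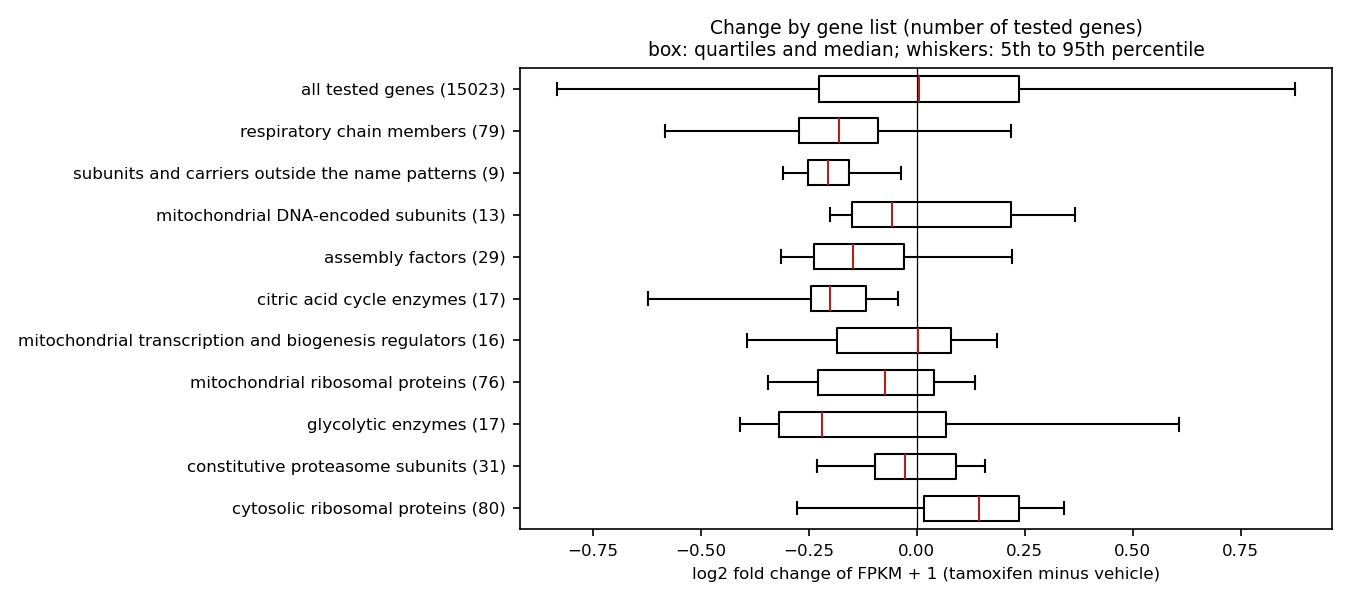
Boxes give the quartiles and median (red) and whiskers the 5th to 95th percentile of the log2 fold change of FPKM + 1 (tamoxifen minus vehicle) for all 15023 tested genes, the 79 members and the other lists. The member median lies at -0.18, inside the central box of all tested genes, which is centred at 0.01.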

How the data were processed

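The authors deposited a gene-level FPKM table with a quantification status beside each value, per the file headers. The submitters' processing notes name mm9 as genome build and Cuffdiff, Cufflinks and STAR 2.3 as tools, with no roles and no annotation. Columns were assigned through the identifiers in the sample descriptions, and groups through the titles. Rows were summed per symbol, 178 failed values (0 in members) were set to missing, and genes with a mean of at least 1 FPKM and 2 estimates per group were tested (15023). Groups were compared on log2(FPKM + 1), which understates changes of low genes, with limma 3.58.1 in R 4.3.3 (eBayes with trend, 2-sided, Benjamini-Hochberg over all tested genes, threshold 0.05). The procedure was tested on simulated data. The members and all gene lists were chosen with earlier results of these data known.

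Named genes were every member past the threshold, the 3 smallest p and the highest and lowest level in each complex, all Sdh genes, the isoform groups, the leading gene of each list, Etv1 and Kit. The values of 1 member are not reported here. Near copies were searched with blastn 2.17.0. Promoter windows are from RefSeq. Alternatives covered pseudocount, filter, scaling, failed values, covariates, the variance model, library weights and leaving out each library.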

Additional observations from a re-analysis of the deposited data

Results flagged for a closer look

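Among 29 named members, 58 groups of 4 libraries were checked for a library far from the other 3, and 2 were found; chance gives about 1 in 20 groups, or 2.9 here. Ndufs5 measured 46.9 FPKM in Vehicle replicate 3, against 1.72 to 2.3 in the other vehicle libraries. Atp5e measured 251 FPKM in Tamoxifen replicate 2, below the 329 to 341 of the others.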

How the results depend on the processing

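Of 22 alternatives, 0 gave a member that rose, and the median log2 fold change of members stayed negative in all of them (-0.25 to -0.12, and -0.22 to -0.09 when each library was left out). The number of members that fell was 0 with every library scaled to the same total, 1 with no filter, 1 with the same total without receptor segments and mitochondrial transcripts, and 1 with the replicate number as a block; it was 1 to 2 when each library was left out. The number of all genes called was 819, and it became 304 with no filter, 534 with a mean of at least 5 FPKM, 228 with the same total, 252 with the replicate block, and 268 to 856 when each library was left out. It was 913 with a robust variance model, 990 with the identifier range as covariate and 1207 with library weights. The 819 were 358 higher and 461 lower. The higher genes numbered 113 to 569 and the lower ones 75 to 638 over the alternatives that keep every library, and 103 to 420 and 160 to 436 when each was left out. Higher genes outnumbered lower ones with the same total (153 and 75) and with the same total without receptor segments and mitochondrial transcripts (401 and 392). The cause was not tested. The titles do not say whether replicate numbers pair the samples. Deviations of same-numbered libraries correlated at -0.16 to 0.14 across genes. Vehicle replicates 3 and 4 and Tamoxifen replicate 3 correlated best with their own number, and the other libraries did not. With 4 libraries per group these correlations cannot decide whether the samples are paired. Cox6b2 kept its call in 21 of 22 alternatives and Atp5sl in 12. Absolute depth is unknown, which limits how firmly the lowest members can be read.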
